A study of Mus musculus with 5 samples.

Results

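The circuit of peroxisome proliferator-activated receptors (PPARs) and PGC-1 coactivators was taken as 8 named genes of the 57186 in the gene tables: Ppara, Ppard, Pparg, Rxra, Ppargc1a, Ppargc1b, Esrra and Esrrg. The list was chosen by the measured level of Ppara, which was higher in het atria, so the differences between genotypes in these libraries are given as a description, and whether edgeR called a member is stated for completeness and supports nothing. All 8 genes were found, and all 8 were among the 16412 genes that passed the expression filter. The tissue was snap-frozen cardiac atria of mice that carry the E990G variant of MRC2 on one allele (het) and of wild-type mice (WT), and the labels name no driver line, transgene or treatment. MRC2 is an endocytic collagen receptor, and the series concerns fibroblasts and susceptibility to atrial fibrillation. Stranded polyA libraries from batch 2 were analysed here, namely het replicates 5, 6 and 7 (n = 3) and WT replicates 7 and 8 (n = 2). The series describes 7 het and 8 WT animals between 4 and 10 months of age, and the labels used here give neither the age nor the sex of single animals.

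PPARs are nuclear receptors that bind fatty acids and their derivatives, pair with a retinoid X receptor and switch on genes of fatty acid uptake and oxidation. PGC-1 coactivators dock on these receptors and on the estrogen-related receptors, which have no known physiological hormone and drive genes of mitochondrial respiration. In heart muscle, which burns mostly fatty acids, PPAR-alpha and the estrogen-related receptors with PGC-1 are the textbook regulators of fuel use.

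Library depth lay between 17784601 expected counts in WT 8 and 28353091 in het 7, of which mitochondrially encoded genes took 13% to 17.7%. Mrc2 itself had a log2 fold change of -0.01 (edgeR adjusted p = 0.973), and an amino acid exchange does not show in gene counts, so the counts do not check the genotype labels. Ddx3y, on the Y chromosome, had 938 expected counts in WT 7 and at most 3 in each other library, and Xist had 21.5 in WT 7 and at least 6117 elsewhere. By these genes WT 7 alone looks male and all het libraries look female, so sex was not balanced between the groups, and its part in the results was not tested. Without WT 7 the Ppara log2 fold change was 1.37. That fit leaves 1 WT library and reuses the value that chose the list, so nothing about sex is read from it. Cardiomyocyte marker genes summed to between 87974 and 102801 TPM (transcript abundance scaled to length and library total) in het and between 115861 and 125274 in WT. Of these 10 atrial and cardiomyocyte markers, Ryr2 rose (log2 fold change 0.69) and Myl4 (-0.68) and Nppa (-0.64) fell. Erythroid markers summed to between 11776 and 20012 TPM in het and between 2050 and 8754 in WT. Across all tested genes fold changes followed transcript length, from a median of -0.38 in the shortest length class, of 10, to 0.33 in the longest. Each difference of a member is therefore given a second time with per-library length and GC trends removed.

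Promoter sequence is shown for the 2 members called higher in het, Ppara and Ppargc1a, and for Esrra, the one member whose het libraries all lay below the WT libraries. The 250 bases before the RefSeq start of each gene are given on the gene's strand, 5′ to 3′, in build GRCm38.p6. The regions are chr15:85735526-85735775 (plus strand) for Ppara, chr5:51567726-51567975 (minus strand) for Ppargc1a and chr19:6921809-6922058 (minus strand) for Esrra. Capitals mark the letters TGACG or their reverse complement CGTCA, the core of the cyclic AMP response element.
Ppara: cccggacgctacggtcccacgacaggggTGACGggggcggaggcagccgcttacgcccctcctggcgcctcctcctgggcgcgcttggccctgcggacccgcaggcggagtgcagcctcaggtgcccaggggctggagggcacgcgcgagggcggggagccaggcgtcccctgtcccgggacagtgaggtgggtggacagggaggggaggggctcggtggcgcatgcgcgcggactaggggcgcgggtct
Ppargc1a: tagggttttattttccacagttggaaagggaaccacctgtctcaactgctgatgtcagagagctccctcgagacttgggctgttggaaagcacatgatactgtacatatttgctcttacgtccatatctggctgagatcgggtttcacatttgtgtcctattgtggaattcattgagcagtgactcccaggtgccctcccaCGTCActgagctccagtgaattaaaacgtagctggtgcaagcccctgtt
Esrra: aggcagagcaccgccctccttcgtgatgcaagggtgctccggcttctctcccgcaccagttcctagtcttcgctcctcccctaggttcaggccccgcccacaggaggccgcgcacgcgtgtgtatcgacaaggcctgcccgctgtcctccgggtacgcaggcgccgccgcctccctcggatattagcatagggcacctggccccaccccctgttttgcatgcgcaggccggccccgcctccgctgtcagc
The Ppara window holds 76.4% G and C and 1 such match, whose first base lies at position -222 from the start. The Ppargc1a window holds 48.0% G and C and 1 match at position -49. The Esrra window, with 68.4% G and C, holds none of the 3 motifs searched. Those were TGACG, the nuclear receptor hexamer AGGTCA and the clock factor E-box CACGTG, each on both strands, with no overlap between the matches shown. Of 32851 windows of this length, 17.8% hold TGACG, 14% AGGTCA and 6.02% CACGTG. Among the other windows read for the members, AGGTCA occurs at positions -28 and -9 of separate Pparg starts and at -87 and -48 of 1 Rxra start. A match describes letters and is no evidence of binding.

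On a scale per transcript length, the member with the highest level was Esrra, with a median of 101.5 TPM over the 5 libraries (84.7 to 115.0). Ppargc1a followed with a median of 17.3 TPM (8.96 to 18.3), Rxra with 14.8 (10.8 to 16.5) and Ppard with 11 (9.33 to 12.6). Esrrg had a median of 7.48 TPM (5.95 to 8.04), Ppara 5.65 (1.97 to 8.17), Pparg 4.6 (3.55 to 7.97) and Ppargc1b 3.4 (3.13 to 6.69). Esrra stood above Ppargc1a, Rxra above Ppard, and Ppard above Esrrg in all 5 libraries. The other neighbours changed places between libraries: Ppargc1a exceeded Rxra in 3 libraries, Esrrg exceeded Ppara in 3, Ppara exceeded Pparg in 2, and Pparg exceeded Ppargc1b in 4.

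Of the 8 members, Ppara and Ppargc1a were called higher in het and 0 were called lower by edgeR's quasi-likelihood test with an adjusted p under 0.05. Among all tested genes 5.64% were called (2.99% higher and 2.66% lower). Since Ppara chose the list in this same comparison, nothing is read from that share. The log2 fold change was above 0 for 7 of the 8, with a median of 0.23, where the median of all tested genes was -0.001. Without the length and GC trends the median of the 8 was 0.21, that of all genes was -0.01, and no gene of the whole table was called (0.0%, with 1849 genes at an unadjusted p under 0.05 and a smallest adjusted p of 0.0506). By CPM (counts scaled to the TMM library size) het and WT values did not overlap for 4 members, namely Ppara, Ppargc1a and Rxra on the higher side and Esrra on the lower side, and 42.3% of all tested genes did not overlap either. In bulk tissue, fewer cells of a type and less RNA per cell cannot be told apart for any of these genes.

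**Figure D1:**
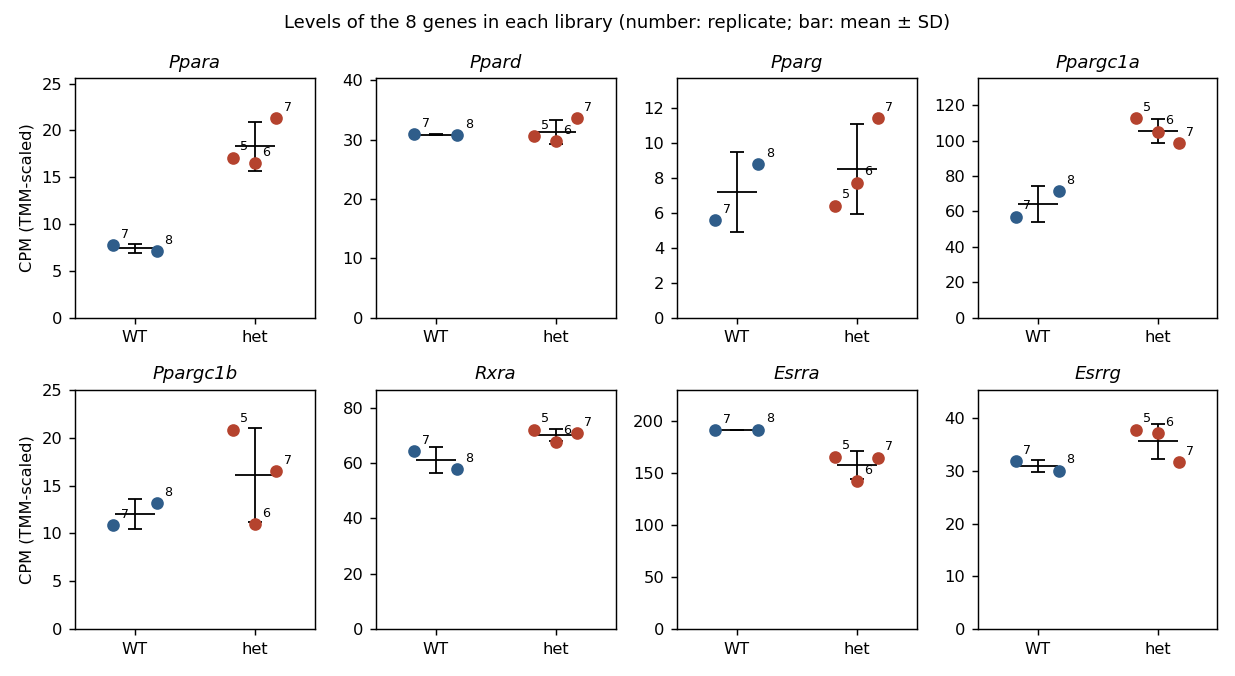
CPM (counts scaled to the TMM library size, vertical axes from 0) of the 8 genes in WT and het libraries, with each point a library, its replicate number beside it, and black bars for the mean and SD. The het points of Ppara (16.5 to 21.3 CPM) and Ppargc1a (98.6 to 112.7 CPM) lie well above the WT points, the Esrra points lie below them, and the points of Ppard and Pparg intermingle.

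Ppara encodes the receptor that drives fatty acid oxidation in heart and liver. It had 364, 368 and 618 expected counts in het 5, 6 and 7, and 188 and 121 in WT 7 and WT 8. These counts correspond to 17.1, 16.5 and 21.3 CPM in het and 7.71 and 7.07 CPM in WT. Every het library was above both WT libraries, and het 7 was the highest. The mean was 18.3 ± 2.62 CPM over the het libraries (SD, n = 3) and 7.39 ± 0.450 CPM over the WT libraries (SD, n = 2), a 2.47-fold difference or 1.31 on the log2 scale (SE 0.18). Among all tested genes 1.02% had a log2 fold change at least as high. Ppara transcripts are of middle length (2752 bases), and genes in its length class had a median of only 0.10. Its log2 fold change was 1.24 (SE 0.17) with length and GC trends removed.

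Over the 18 fits made of these same libraries the Ppara log2 fold change ran from 1.18 without het 7 to 1.66 on log2(TPM + 0.1). In gene-level TPM the het libraries had 8.17, 5.65 and 7.69 and the WT libraries 2.39 and 1.97, which gives a larger ratio (3.29). Part of the het 5 value comes from a short transcript model with 4 counts. The gene's effective length was 1953.5 bases in het 5 against 2838 to 3071 in the other libraries. In het 5 ENSMUST00000109422, with 98.9% of the gene's counts, was given 63.6% of its TPM. The TPM of this leading transcript alone were 5.2, 4.97 and 7.01 in het and 2.39 and 1.97 in WT, a ratio of 2.63. All het libraries remained above the WT libraries on this scale.

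Ppard encodes the broadly expressed PPAR of muscle and other tissues. It stood at 30.6, 29.7 and 33.6 CPM in het and at 30.9 and 30.7 CPM in WT. Both WT values fell between the het values, and the log2 fold change was 0.02 (SE 0.13), or 0.14 (SE 0.11) with length and GC trends removed. It was -0.033 without het 7, and no direction is given for it.

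Pparg encodes the receptor of fat cell formation and lipid storage. It had 6.43, 7.74 and 11.4 CPM in het and 5.57 and 8.82 CPM in WT. The groups overlapped, with het 7 the highest library and WT 7 the lowest. The log2 fold change of 0.26 (SE 0.29) was smaller than its standard error, and it was -0.01 without het 7. White adipocyte markers, 10 genes that include Adipoq and Fabp4, showed a like order of libraries: they summed to 266, 365 and 815 TPM in het and to 363 and 748 TPM in WT. Adipoq had 2.06, 2.82 and 27.6 TPM in het and 6.21 and 16.2 TPM in WT. None of the 10 was called, and the part of adipocytes in the Pparg values was not tested. Ucp1, which defines brown fat, had 28.5 TPM in het 7 and at most 0.64 in the others, 2 het libraries being at 0. The part of brown fat in these values was not tested.

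Set against the sum of its family, Ppara made up 35.3%, 26.2% and 27.2% of PPAR TPM in het and 13.9% and 12.4% in WT. The shares were 29.6% ± 4.99 (SD, n = 3) and 13.2% ± 1.10 (SD, n = 2). Ppard held 48.2% ± 3.19 in het and 61.5% ± 3.93 in WT, with every het library below both WT libraries. The shares of the family add up to the whole and Ppara chose the list, so the lower Ppard share is not a separate result. By CPM and by TPM the Ppard values of the groups overlapped. With the TPM of the leading Ppara transcript in place of the gene TPM, a choice made after seeing the data, the Ppara share was 25.8%, 23.8% and 25.4% in het and unchanged in WT. Pparg held 22.2% ± 6.48 and 25.4% ± 5.03, and its groups overlapped. The family sum was 23.1, 21.6 and 28.3 TPM in het and 17.1 and 15.9 TPM in WT, so the sum was higher in each het library, and it was 20.2 TPM in het 5 with the leading transcript alone.

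Rxra encodes the retinoid X receptor that PPARs need to bind DNA. It had 72.2, 67.9 and 70.8 CPM in het and 64.5 and 57.9 CPM in WT. The het libraries were all above the WT libraries, by a small margin. The log2 fold change was 0.20 (SE 0.12), below the median of 0.24 for genes of its length class, and 0.14 (SE 0.10) with length and GC trends removed. It turned to -0.053 when the length trend alone was removed. Of the TPM of the 3 retinoid X receptors, Rxra held 26.2% ± 1.36 in het and 20.7% ± 2.06 in WT, and Rxrb held the largest share in every library (40.5% ± 1.63 and 44.6% ± 2.79 by group). These shares add up to the whole and keep the length trend. Effective lengths were 4505 bases for Rxra, 1859 for Rxrb and 1262 for Rxrg.

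Ppargc1a encodes PGC-1-alpha, the coactivator that links energy demand and cold to mitochondrial genes. It had 112.7, 105.1 and 98.6 CPM in het and 57.1 and 71.5 CPM in WT. The het values were close together and all above the WT values. The group means were 105.5 ± 7.04 CPM for het (SD, n = 3) and 64.3 ± 10.2 CPM for WT (SD, n = 2), a 1.64-fold difference or 0.72 on the log2 scale (SE 0.14). Its transcript is long (effective length 5886 bases), and it lies in the longest of the 10 length classes, where the median was 0.33 and 261 of 1642 genes were called higher. The log2 fold change was 0.27 (SE 0.12) once length and GC trends were removed. It was no longer called there, and it was also not called without het 5, het 6, het 7 or WT 7, with values from 0.56 to 0.76. It was called in 10 of the 18 fits.

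Ppargc1b encodes PGC-1-beta, a relative with overlapping targets. Its values were 20.9, 11 and 16.5 CPM in het and 10.9 and 13.1 CPM in WT. Het 5 was the highest library and het 6 lay between the WT libraries, so the groups overlapped. Its log2 fold change was 0.43 (SE 0.25), and 0.46 (SE 0.26) with length and GC trends removed. Without het 5 it was 0.20. Over the 3 PGC-1 family genes, which include Pprc1, Ppargc1a held 59.99% ± 10.1 of the TPM in het and 53.8% ± 2.00 in WT, with overlapping groups. The 3 genes together came to 32.3, 25.3 and 33.3 TPM in het and 16.2 and 19.2 TPM in WT.

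Esrra encodes the estrogen-related receptor that carries most PGC-1 action on respiratory genes. It stood at 166.1, 142.2 and 165.2 CPM in het and at 191.8 and 192.1 CPM in WT. Each het library was below both WT libraries, which were nearly equal. The log2 fold change was -0.28 (SE 0.13) and was not called. It was 0.01 (SE 0.11) with length and GC trends removed, so its direction is not kept. In TPM the groups overlapped, from 84.7 to 113.3 in het and from 101.5 to 115.0 in WT.

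Esrrg encodes the estrogen-related receptor of perinatal heart maturation. It had 37.9, 37.2 and 31.8 CPM in het and 31.8 and 30.1 CPM in WT. Het 7 matched WT 7, and the other het libraries were higher. The log2 fold change was 0.20 (SE 0.14), and it turned to -0.18 (SE 0.12) with length and GC trends removed. Of the TPM of the 3 estrogen-related receptors, Esrra held 87.3% ± 1.03 in het and 91.0% ± 0.713 in WT. Esrrg held 6.97% ± 0.954 and 5.18% ± 0.178, and Esrrb 5.72% ± 0.308 and 3.86% ± 0.535. For each of these 3 genes the shares of het and WT libraries did not overlap, and how often this occurs in other families was not computed. The shares add up to the whole, so they are not separate results. They also keep the length trend, with effective lengths of 1595 bases for Esrra, 3837 for Esrrb and 4534 for Esrrg. With length and GC trends removed Esrrg was not above 0, as given above.

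**Figure D2:**
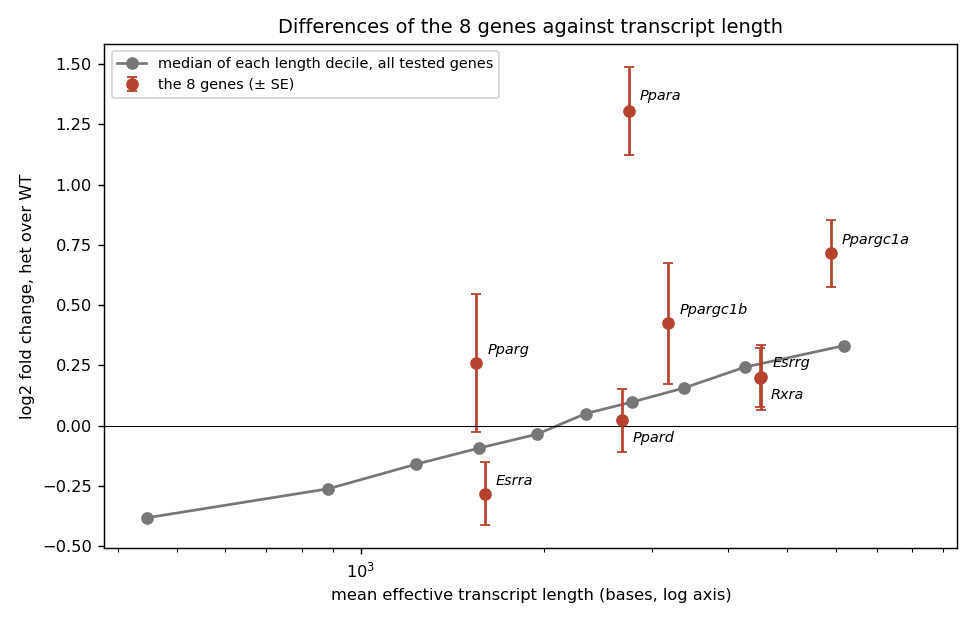
Log2 fold change (het over WT, vertical axis) of the 8 genes with SE against mean effective transcript length in bases (log axis), with the median of each of 10 length classes of all tested genes in grey. The grey line climbs from -0.38 to 0.33; Ppara stands 1.21 above the median of its length class, Ppargc1a 0.38 above, and Rxra, Esrrg and Ppard within 0.08 of theirs.

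The authors' deposited table gives their own comparison of het with WT, a fit that covers these libraries too and is therefore no independent measurement. In the authors' deposited table Ppara had a log2 fold change of 1.15 with confidence bounds of 0.12 and 2.19 (adjusted p = 0.540, rank 323 of 14927 genes). Ppargc1b stood at 0.98 (bounds 0.08 and 1.87) and Ppargc1a at 0.77 (bounds -0.02 and 1.56) in the authors' deposited table. There Esrra was at -0.53, Esrrg at -0.24, Ppard at -0.06 and Rxra at -0.04, and Pparg at 0.26. Thus 4 of the 8 were above 0 in the authors' deposited table, and no gene in it has an adjusted p under 0.05 (the smallest is 0.277). Ppard, Pparg, Rxra and Esrrg have a t of 0 in the authors' deposited table although their fold changes are not 0, as a test against a minimum fold gives, and the set-up of that test is not given in the sources used here. Its p-values and ranks are therefore not those of a test against no change. Rxra, Ppard and Esrrg have opposite signs in the authors' deposited table and in the edgeR fit of the 5 libraries.

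**Figure D3:**
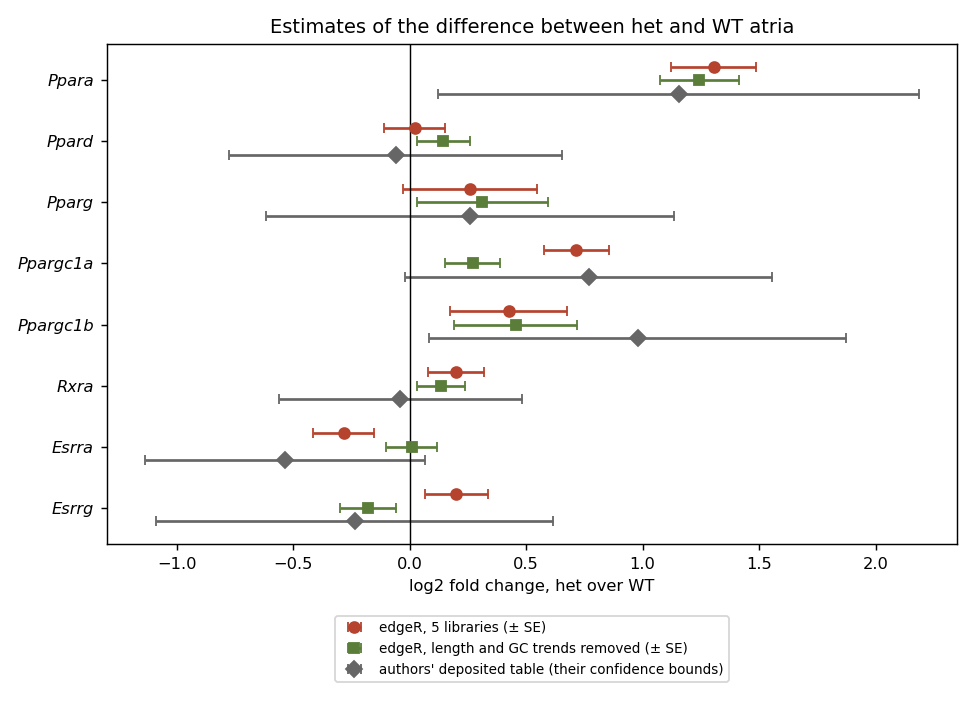
Log2 fold change (het over WT, horizontal axis) of the 8 genes from the edgeR fit of 5 libraries, from the same fit with length and GC trends removed (both with SE) and from the authors' deposited table with its confidence bounds. Ppara lies between 1.15 and 1.31 in all of them, Ppargc1a moves from 0.72 to 0.27 with the trends removed, and Esrra moves from -0.28 to 0.01.

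Transcript composition was not used to choose the genes, so it was tested. The transcript tables list 48 transcripts of the 8 genes, 35 with any count and 10 in the range that was tested. None of the 10 passed (limma on arcsine square root shares, adjusted over 19854 transcripts, of which 2 or 0.0101% were called and 2505 had an unadjusted p under 0.05). There are only 10 splits of 3 against 2 libraries. The exact permutation test used here doubles the smaller one-sided p, so it cannot give a p under 0.2.

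The largest differences were in Pparg and Esrrg. Pparg-201 (ENSMUST00000000450) encodes the longer 505-residue receptor, the form known as gamma 2 of fat cells, and Pparg-202 and Pparg-204 encode 475 residues. Pparg-201 held 6.86%, 33.5% and 18.4% of the Pparg expected counts in het 5, 6 and 7 and was at 0 in both WT libraries, against 136 and 151 expected counts of the gene there. The transcript had 9.40, 57.9 and 60.9 expected counts in het (limma adjusted p = 0.271). The part of adipocytes in these shares was not tested. Pparg-204 held 7.47%, 6.76% and 49.7% in het and 54.0% and 31.0% in WT, with overlapping groups (limma adjusted p = 0.616). These transcripts overlap in sequence, so the assignment of so few reads depends on RSEM's model.

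Esrrg-201 (458 residues) held 87.1%, 87.1% and 90.4% of the Esrrg counts in het and 96.5% and 98.0% in WT. All het libraries were lower, with a difference of -9.02 percentage points between the means (88.2% ± 1.90, SD, n = 3, against 97.2% ± 1.03, SD, n = 2; limma adjusted p = 0.242). Esrrg-203, which encodes a form of 435 residues, held 9.60%, 6.84% and 9.37% in het and 3.38% and 1.66% in WT (limma adjusted p = 0.313). Its het shares were all above the WT shares.

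For the other members 1 coding transcript dominated. Ppara-202 held 98.9%, 92.6% and 94.9% of the Ppara counts in het and all of them in WT, and Ppara-201, Ppara-202 and Ppara-203 each encode 468 residues. Ppargc1a-203 (797 residues) held 98.0% ± 0.811 in het and 99.1% ± 0.247 in WT. Ppargc1a-201, annotated as a target of nonsense-mediated decay, held 1.77% and 0.866% on average. Ppargc1b-202 (1014 residues) held 99.9% or more on average, and Rxra-201 (467 residues) likewise. Ppard-201 (440 residues) held 85.7% ± 5.96 in het and 84.9% ± 10.2 in WT, and Esrra-201 (422 residues) held 87.7% ± 3.13 and 88.1% ± 1.85, with overlapping groups for both.

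**Figure D4:**
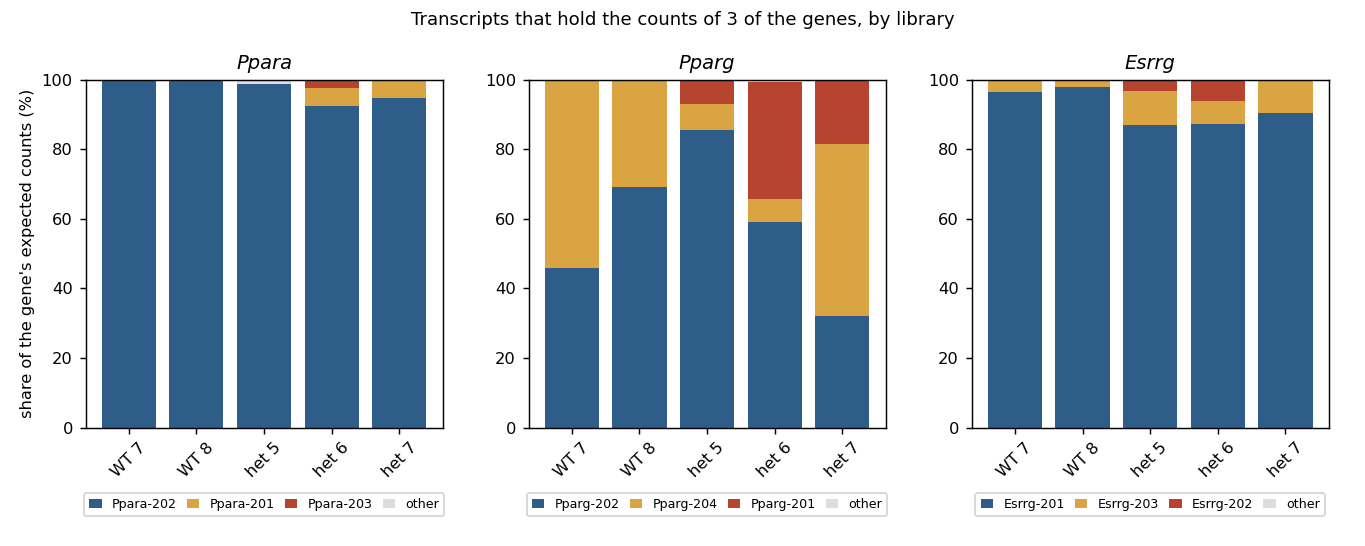
Share of the gene's expected counts (%, stacked to 100) held by each transcript of Ppara, Pparg and Esrrg in each WT and het library. Pparg-201 appears in the 3 het libraries at 6.86% to 33.5% and not in the WT libraries, and Esrrg-201 holds at most 90.4% in het and at least 96.5% in WT.

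The 45 PPAR target genes listed are mostly those of fatty acid uptake, activation, oxidation and storage, and 41 were tested. None rose and 2 fell: Etfb, of the electron transfer flavoprotein (log2 fold change -0.56, SE 0.13, edgeR adjusted p = 0.0327), and Acads, the short-chain acyl-CoA dehydrogenase (-0.55, SE 0.13, edgeR adjusted p = 0.0398). Etfb had 754.5, 851.5 and 844.4 TPM in het and 911.5 and 1017 TPM in WT. The list's median was -0.06 and 17 of 41 were above 0, beside the -0.001 and the 2.66% of lower calls over all tested genes. The median was -0.03 with length and GC trends removed, when neither gene was called (Etfb -0.08, Acads -0.26), and -0.22 in the authors' deposited table. Leaving out 1 library moved the median from -0.20 (without het 6) and -0.15 (without WT 7) to 0.0015 (without WT 8). By CPM the groups did not overlap for 2 of the 41 genes on the higher side and 8 on the lower side, where 21.1% of all tested genes did so in each direction.

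Further PPAR targets are named here after their values were seen. The 2 genes with every het library above the WT libraries were Acsl1, which activates fatty acids, and Plin2, a lipid droplet protein gene, and neither was called. Acsl1 had 116.4, 172.6 and 115.3 TPM in het and 76.2 and 87.7 TPM in WT (log2 fold change 0.53, SE 0.21), and Plin2 had 25.4, 26.2 and 31.4 TPM in het and 23.1 and 22.4 TPM in WT (0.26, SE 0.14). For Pdk4, Ucp3, Angptl4 and Cpt1b the groups overlapped. Pdk4, the kinase that blocks pyruvate oxidation, had 167.4, 187.2 and 55.3 TPM in het and 83.5 and 124.2 TPM in WT. Ucp3 had 7.55, 12.2 and 2.31 TPM in het and 8.90 and 3.69 in WT, and Angptl4 had 7.34, 4.95 and 2.49 TPM in het and 4.59 and 1.0 in WT. For all 3, het 7 was lowest among the het libraries. Cpt1b, the muscle carnitine palmitoyltransferase, stood at 151.8, 185.3 and 154.0 TPM in het and 170.6 and 150.6 TPM in WT, with a log2 fold change of -0.13 (SE 0.14).

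Of 43 target genes of estrogen-related receptors and PGC-1, all tested, 0 rose and 5 fell. Over all tested genes 2.99% were called higher and 2.66% lower. Cox4i1, a subunit of cytochrome c oxidase, fell by 0.74 (SE 0.14, edgeR adjusted p = 0.0229). Cyc1 (-0.59) and Uqcrc1 (-0.56) of complex III and Ldhb, the heart lactate dehydrogenase (-0.52), fell too. The list's median was -0.24, with 15 of 43 above 0. By CPM, in 23 genes all het libraries lay below the WT libraries and in 5 above them, where among all tested genes 21.1% did so in each direction. With length and GC trends removed the median was -0.12, Cox4i1 stood at -0.24, and none of the 5 was called. In the authors' deposited table the median was -0.07. Cardiomyocyte markers, whose summed TPM was also lower in each het library, had a median of -0.42. The length classes these markers belong to had a median of -0.21. Correcting for both trends brought the marker median to -0.21, and the authors' fit put it above 0, at 0.14. The part of cardiomyocytes in the target gene values was not tested.

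Coactivators and corepressors of nuclear receptors had 5 higher and 2 lower of 32, where over all tested genes 2.99% were higher and 2.66% lower. The acetyltransferase gene Ep300 (log2 fold change 0.83, SE 0.13), the Mediator subunit gene Med13 (0.75), the steroid receptor coactivator genes Ncoa1 (0.56) and Ncoa2 (0.59), and the corepressor gene Ncor1 (0.51) rose. Smarcd3, the chromatin remodelling subunit gene of heart muscle, fell by 0.65 and the methyltransferase gene Prmt1 by 0.44. The list's median was 0.29, and these are long genes, with a median of 0.16 for the length classes they belong to. With length and GC trends removed the median was 0.09, Ep300 stood at 0.57 and Med13 at 0.28, and none was called. In the authors' deposited table Ncor1 was at 1.12 and Ep300 at 0.16.

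Among 28 tested partner and related receptors 1 rose and 2 fell, beside 2.99% and 2.66% over all tested genes. Nr2c2, the testicular receptor TR4, had 4.8, 5.44 and 5.35 TPM in het and 3.50 and 1.88 TPM in WT. Its log2 fold change was 1.17 (SE 0.21, edgeR adjusted p = 0.0242), and it stood at 0.81 with length and GC trends removed and at 0.73 in the authors' deposited table. Nr4a1, an immediate early receptor gene, fell by 0.63 and Nr2f6 by 0.60. The list's median was -0.06, and it ran from -0.17 without het 5 to 0.13 without WT 7, so no direction is given for the list.

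Of 32 tested upstream regulators of the PGC-1 and PPAR genes 3 rose and 0 fell, beside 2.99% and 2.66% over all tested genes. The 3 were Prkaa2, the AMP-activated kinase subunit of muscle (0.66), Creb1, the factor that binds cyclic AMP response elements (0.63), and the kinase gene Gsk3b (0.50). Without the length and GC trends they stood at 0.18, 0.14 and 0.12, the list's median went from 0.22 to 0.06, and none was called. That median was 0.14 without WT 7 and 0.32 without WT 8. In the authors' deposited table Prkaa2 stood at -0.26, Creb1 at 0.53, Gsk3b at 0.65 and the list's median at 0.01. Calls in all these lists also depended on which library was left out: none remained in any of them without het 5, het 6 or het 7. The list of upstream regulators had 0 calls without WT 7 and 5 without WT 8, and the PPAR target list 0 and 1.

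**Figure D5:**
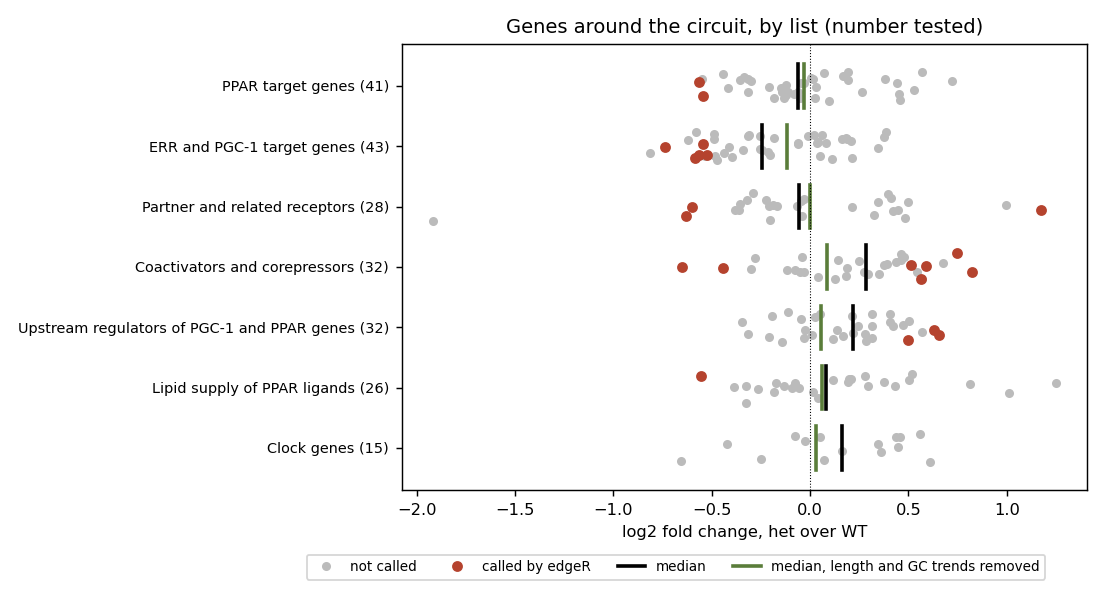
Log2 fold change (het over WT, horizontal axis) of each tested gene in the lists around the circuit, with the number tested in brackets, called genes in red, and list medians before (black) and after (green) removal of length and GC trends. The medians of coactivators (0.29 to 0.09), upstream regulators (0.22 to 0.06) and estrogen-related receptor targets (-0.24 to -0.12) all move towards 0.

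Genes whose levels followed the 2 called members most closely were ranked by the root mean square difference of centred log2 CPM over the 5 libraries, among 12892 genes. For Ppara these were Naip2 (0.141), Cma1 (0.156), Rbm41 (0.162), Adnp (0.177) and Slc6a2 (0.198). Cma1 is a mast cell chymase gene, and Slc6a2 encodes the noradrenaline transporter of sympathetic nerves. With length and GC trends removed their log2 fold changes ran from 0.79 (Rbm41) to 1.72 (Cma1). For Ppargc1a the closest were Hycc2 (0.0295), Ranbp2 (0.0340), Vps35 (0.0446), Zfp654 (0.0449) and Abca5 (0.0495). These 5 have effective lengths from 3061 to 9102 bases, and their log2 fold changes ran from 0.17 to 0.36 with length and GC trends removed, as that of Ppargc1a was 0.27. The libraries share depth and length trends, and likeness over 5 libraries is a description.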

How the data were processed

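Polyadenylated RNA of mouse atria was sequenced in 3 het and 2 WT libraries, grouped by sample title. Build GRCm39 and the tools STAR, RSEM, Trim Galore, FastQC, MultiQC, SAMtools, edgeR and limma are named, without versions, per the submitters' processing notes. The deposited gene and transcript tables hold expected counts and TPM from RSEM and, for transcripts, the isoform percent of the gene, per the file headers. The authors' deposited comparison holds log2 fold changes with confidence bounds, a moderated score (t) and p-values. Labels in the other columns of the deposited tables are names of genes and transcripts.

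Expected counts were rounded. Genes passing filterByExpr (16412 of 57186) were normalized by TMM and entered edgeR's quasi-likelihood test (robust, Benjamini-Hochberg, threshold 0.05; biological coefficient of variation 0.18). P-values measure the spread between these 5 samples. SE is the absolute log2 fold change over the square root of F. Length and GC trends per library were fitted with mgcv and entered as offsets (GC known for 98.4% of tested genes, the median used for the rest). Transcript shares were tested with limma for genes with a mean of at least 50 expected counts and mean shares of 5% to 95%. Read depth of 17784601 to 28353091 expected counts sets the precision. Alternatives were other scalings and filters, limma-voom (plain and with quality weights), DESeq2, limma-trend on TPM with pseudocounts of 1 and 0.1, trend removal, other share models, and each library left out.

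The members and lists were chosen with earlier results of these data known. Named were the 8 members, up to 4 called genes per direction of each list by smallest p (with 0 called, the 2 with the highest TPM), and the 5 genes closest to Ppara and to Ppargc1a with a mean of at least 1 CPM. Some genes that were called in the lists are not reported here. Promoters are from RefSeq (GRCm38.p6), found for 7 members. Protein lengths were summed from coding exons of the GENCODE annotation of GRCm38. No genome of the files' build was used.

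On simulated data for het against WT (15977 genes, 200 changed), edgeR recovered 57% of the changes set at 1 and 99% of those set at 2 on the log2 scale, and 8 of 159 calls were false. A simulated length trend (15971 genes) gave 99 false calls among 247, reduced to 9 among 162 by the offsets. For transcript shares (7950 transcripts) 95% were recovered, with 14 of 392 calls false. The size of the share differences set there is not given here, so 95% is not read as the recovery for the members' transcripts. Versions were edgeR 4.0.16, mgcv 1.9.3, limma 3.58.1 and DESeq2 1.42.0 under R 4.3.3.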

Additional observations from a re-analysis of the deposited data

How the results depend on the processing

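Of all tested genes edgeR called 926. With every gene with a count it called 2211, DESeq2 called 1647, limma-voom with quality weights 588, limma-trend 8 on log2(TPM + 1) and 22 on log2(TPM + 0.1), and edgeR 16 with the length trend removed and 0 with length and GC trends removed. Leaving out 1 library gave 0 (without het 7) to 878 (without WT 8) calls, with 1 without het 5, 11 without het 6 and 394 without WT 7. In the fits without a WT library the lone WT sample is assumed to vary like the het samples. Library size alone gave 795 higher and 391 lower calls, upper-quartile scaling 327 and 568, and the TMM fit 490 and 436. The median of all genes moved to -0.14 with every gene with a count and to 0.13 on log2(TPM + 0.1).

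The Ppara log2 fold change of 1.31 chose the list, so its refits on these libraries are no support for it. It was not called on log2(TPM + 1) (1.35), with length and GC trends removed (1.24), without het 5 (1.36) or without het 7 (1.18), and leaving out 1 library gave 1.18 to 1.38. Signs turned for Ppard with upper-quartile scaling (-0.023, when the median of all genes was -0.047), the length trend removed (-0.072) and 1 library left out (-0.033 without het 7 to 0.061), and for Pparg with 1 library left out (-0.039 without WT 7, -0.014 without het 7, up to 0.63 without WT 8). With the length trend removed Rxra went to -0.053 and Esrrg to -0.054. With length and GC trends removed Esrra went to 0.0083 and Esrrg to -0.18.

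Transcript share calls numbered 2, with 80 by diffSpliceDGE and 11 on a logit scale. They ran from 0 (without het 5, het 6, het 7 or WT 8) to 236 (without WT 7) when 1 library was left out. With 1 library left out, share differences in percentage points turned sign for Ppard-201 (-6.38 without WT 7, -1.39 without het 7 and -0.335 without het 6, up to 8.04), Ppard-208 (-6.99 to 1.05), Pparg-202 (-12.03 without het 5 and -10.2 without WT 7, up to 14.8) and Esrra-201 (-1.94 to 1.19, with 0.915 without WT 8). The causes were not tested, except that leaving out a library leaves fewer samples. No paired analysis was possible because the groups share only replicate number 7. The shallowest library, WT 8, held 121 counts of Ppara, so low-level members and their minor transcripts are least precise there.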

Other observations

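Genes that supply or store the lipids from which PPAR ligands derive had 0 higher and 1 lower of 26 tested. Over all tested genes the shares were 2.99% higher and 2.66% lower. Gpihbp1, which anchors lipoprotein lipase on capillary walls, fell by 0.56 (SE 0.13, edgeR adjusted p = 0.0346), from 71.3 and 80.8 TPM in WT to 55.2, 60.9 and 61.9 TPM in het, and was not called with length and GC trends removed (-0.15). The lipid synthesis genes Fasn and Scd1, named after their values were seen, stood apart in 1 library. Fasn had 107.4 TPM in het 7 and 5.02 to 24.4 TPM in the other libraries, and Scd1 had 160.2 TPM in het 7 and 11.2 to 26.3 TPM elsewhere. Het 7 also held the highest Pparg and Ucp1 values.

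Clock genes, several of which are known to be coupled to PPAR-alpha and PGC-1-alpha, varied between libraries of the same genotype. Of 15 tested, 0 were called by edgeR, and by CPM the groups overlapped for all 15. By TPM they did not overlap for Clock (5.98 to 9.67 in het, 4.36 and 5.28 in WT) and Cry1 (3.34 to 5.65 in het, 2.72 and 3.0 in WT), named after their values were seen. The share of all tested genes without overlap by TPM was not computed. The median of all genes was 0.10 on log2(TPM + 1), so nothing is read from Clock and Cry1. Dbp, an output gene of the clock, had 35.9, 149.3 and 50.1 TPM in het and 149.1 and 67.2 TPM in WT, and Tef had 36.4, 98.5 and 50.4 TPM in het and 69.7 and 37.5 TPM in WT. Het 6 and WT 7 were high for both. Bmal1, which runs opposite to Dbp in the clock and was named after its values were seen, was lowest in these libraries (1.93 TPM in het 6 and 4.71 TPM in WT 7, against 8.20 to 12.8 TPM in the others). The part of the clock in the values of the circuit was not tested.

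Other cell type markers were as follows. Macrophage markers had 2 higher of 12, Adgre1 (1.14) and Cd163 (1.03), with summed TPM of 307.9 to 403.0 in het and 259.3 to 263.7 in WT. Endothelial markers had 2 lower of 10 (Gpihbp1 and Egfl7), fibroblast markers 1 higher of 10 (Lum, 0.50), and smooth muscle and pericyte markers 1 lower of 9 (Tagln, -0.93). Log2 fold changes were above 0 for 7 of 10 endothelial genes (list median 0.08) and 5 of 10 fibroblast genes (0.09). They were above 0 for 3 of 9 smooth muscle and pericyte genes (-0.33). No direction of a list is read from its called genes alone. Skeletal muscle markers had 2 lower of 6 (Myl1, -0.83, and Ckm, -0.70), and ventricular markers 1 lower of 5 (Myh7, -0.58). The ventricular markers summed to between 134.2 and 536.9 TPM in het and between 239.4 and 291.4 in WT, so the groups overlapped. Myl2, named after its values were seen, had 67.5, 319 and 4 TPM in het and 92.1 and 118.6 TPM in WT. Myh1, Myh2 and Myh4 had at most 0.13 TPM in any library, so the Myl1 and Ckm calls are not read as skeletal muscle. Brown adipocyte markers had 0 called of 8, with summed TPM of 2135 to 2307 in het and 2785 to 2903 in WT. That sum is mostly Cox8b, which had at least 1973 TPM in every library, also in het 5 and het 6, where Ucp1 was at 0. It is therefore not read as brown fat. Among all tested genes 2.99% were called higher and 2.66% lower, and no marker was called with length and GC trends removed. In the authors' deposited table Adgre1 (-0.06), Cd163 (-0.02) and Lum (-0.06) were below 0. There Tagln (0.36), Myl1 (0.25), Ckm (0.09), Myh7 (0.85) and Gpihbp1 (0.05) were above 0, and Egfl7 stood at -0.20. Of the cardiomyocyte markers, Ryr2 stood at 0.73, Myl4 at 0.16 and Nppa at -0.06 there. The part of these cell types in the values of the circuit was not tested.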
